A study of Mus musculus with 4 samples.

Results

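Expression in airway smooth muscle cells from mice on a vitamin A-deficient diet (VAD) was compared with that in cells from mice on a vitamin A-sufficient diet (VAS), gene by gene, on 1 array for each diet. Members of the comparison are the named genes, 1 probe set each, whose highest value among the 4 arrays of the study reached the median of all values of named genes (6.05 on the log2 scale). By this rule 12395 of 23185 named genes entered, or 53.5%. Every gene below is given by its log2 value, on which a difference of 1 is 2-fold. Each array holds RNA pooled from 3 mice and no group has another array, so no spread between samples exists and no difference below has a test.

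All 4 groups are adult Acta2-hrGFP;Cspg4-DsRED mice, which carry a green reporter under the smooth muscle actin gene and a red reporter under Cspg4, a pericyte gene. Cells positive for hrGFP and negative for DsRED were sorted from lung by flow cytometry and labelled airway smooth muscle. Cspg4 itself read 7.71 on VAS, 8.22 on VAD, 8.08 on CTR and 7.98 on BMS. VAS mice ate the routine diet with 15 IU of vitamin per gram, and VAD mice a diet with less than 0.1 IU per gram, for 3 days by the sample's own diet label and by 1 sentence of the protocol, and for 5 days by another sentence of it. Mice of the CTR group ate a powdered sufficient diet mixed with corn oil for 3 days, and BMS mice ate the same diet with an antagonist of all retinoic acid receptors, 5 mcg/g, for 3 days. CTR is therefore another sufficient group, with another diet form and the vehicle, and its value stands beside each VAD and VAS value. The labels state neither how the mice were spread over days of sorting nor the hour of collection. Because these are bulk samples of sorted cells, fewer cells of a type and less RNA per cell cannot be told apart.

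Vitamin A reaches tissues as retinol, is stored as retinyl esters and is oxidised in 2 steps to retinoic acid. Retinoic acid binds the nuclear receptors RARA, RARB and RARG, which act with RXR partners on retinoic acid response elements, and CYP26 enzymes break it down. In lung it is known for its part in airway patterning, alveolar formation and smooth muscle differentiation, and the store of retinyl esters in liver lets animals keep plasma retinol for some time after intake stops.

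Defining smooth muscle genes were present on both arrays. Acta2, the actin that drives the green reporter, read 11.96 on VAS, 12.12 on VAD, 11.98 on CTR and 11.95 on BMS, and 11 of 12 airway smooth muscle markers passed the filter with a median difference of 0.16. The summed level of these markers (log2 of the summed linear values) was 14.8 on VAS and 14.9 on VAD. Markers of other cells were present too, among them 21 fibroblast, 17 endothelial and 14 macrophage and monocyte markers past the filter. All 14 vascular smooth muscle and pericyte markers passed as well. Their median level was 9.04 on VAS, 9.31 on VAD, 9.67 on CTR and 9.32 on BMS. The median of VAD minus VAS was 0.10 in that list, and that of VAD minus CTR -0.33. Xist was below the filter on all 4 arrays, at 4.41 to 4.50, and the Y-linked genes Eif2s3y, Kdm5d and Uty passed it. The median difference of all members was 0.01, their standard deviation 0.27, and 5% of them lay below -0.42 and 5% above 0.39.

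At least 2-fold higher on VAD stood 29 genes (0.234% of members), and at least 2-fold lower 52 (0.42%), together 81 (0.653%). Of these, 5 and 9 carry provisional or copy-rich names. The median fold among them was 2.32 for the higher and 2.36 for the lower genes. Over 3-fold were 6 and 8, and the furthest were 8.42-fold higher and 17.4-fold lower. The side with the lower value was under the filter for 13 of the 29 and for 19 of the 52, so for those genes the size of the fold rests on a value in the range of unexpressed genes. Ordered by level, 4 equal groups of the members held 0.871%, 0.678%, 0.387% and 0.678% 2-fold genes from the lowest to the highest. Nearest to the threshold were Ppp1r3e at 1.01, just inside, Igha at 0.99, just outside, and on the lower side Ifi47 at -1.02 and Chchd10 at -0.99. At the edge of the filter Pgam1 was the last gene to pass, with 5.43 on VAS and 6.05 on VAD.

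**Figure D1:**
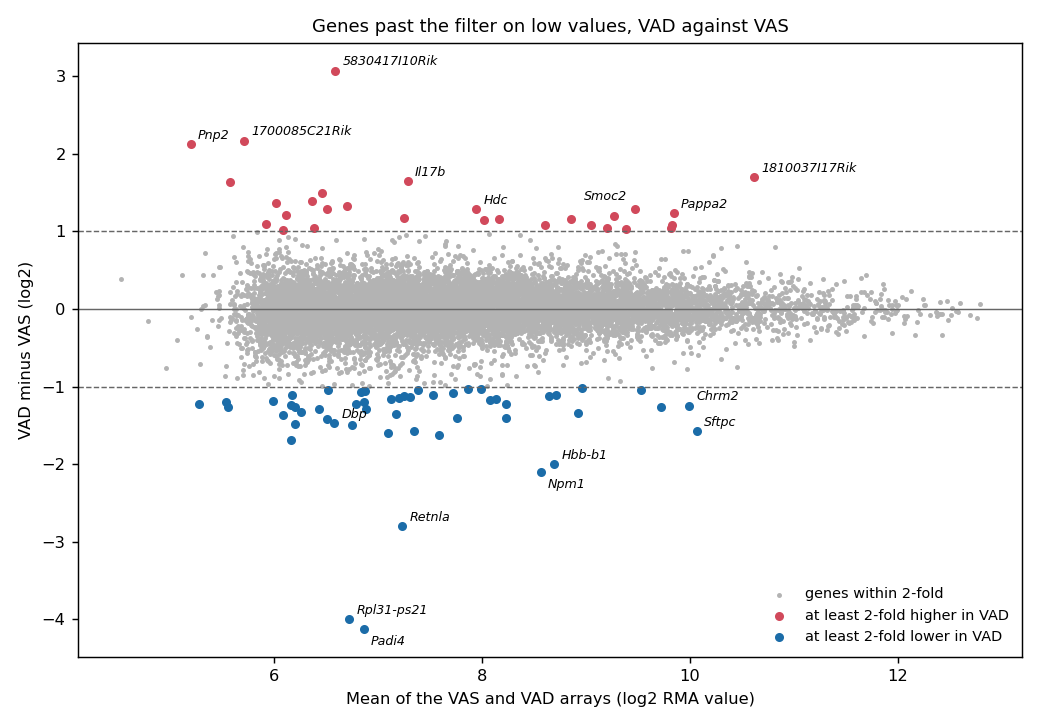
Difference VAD minus VAS (log2, y axis) against the mean log2 RMA value of the VAS and VAD arrays (x axis) for the 12395 members, with dashed lines at 2-fold. Red points are the 29 genes at least 2-fold higher on VAD and blue points the 52 at least 2-fold lower, and both kinds occur over the whole range of levels, with Padi4 and Rpl31-ps21 furthest below 0 and 5830417I10Rik furthest above it.

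Where the CTR array lay splits these genes. Among all members CTR was nearer to VAS for 5034 (40.6%) and nearer to VAD for 7361 (59.4%), and it lay beyond VAD, on the far side from VAS, for 5644 (45.5%). Among the 29 higher genes CTR was nearer to VAS for 16 and nearer to VAD for 13, and among the 52 lower genes it was nearer to VAS for 15 and nearer to VAD for 37. For those 37 genes CTR lay beyond VAD in 20 and between VAS and VAD in 17, in some of them about midway. CTR was thus nearer to VAD for 44.8% of the higher and 71.2% of the lower genes, beside 59.4% of all members. How far the choice of these genes by VAD minus VAS shapes these shares was not tested. At least 2-fold above both sufficient arrays on VAD were 13 genes (0.105%), and at least 2-fold below both 11 (0.0887%). VAD was the highest of the 4 arrays for 23 of the 29 (19.4% of all members) and the lowest for 28 of the 52 (19.7%), a share that the choice of these genes raises.

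Of the 13 genes 2-fold above both sufficient arrays, Npas2 and Mir376b are described further on and the others are given next. 5830417I10Rik read 5.05 on VAS, 8.12 on VAD, 4.98 on CTR and 5.02 on BMS, so that VAD alone was high and the 3 other arrays lay within 1.5-fold of each other. Smoc2, a calcium-binding matricellular protein, read 8.82, 10.11, 8.87 and 9.26 on the same arrays in that order, and Scube3, a secreted EGF-domain protein, 8.06, 9.15, 8.10 and 7.97. In both, CTR was 0.04 above VAS and VAD stood above all the others. Their relatives on the array went other ways: Smoc1 read 8.18 on VAS and 8.12 on VAD, Scube1 9.14 and 8.42, and Scube2 8.13 and 7.15.

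Tdo2, which opens the ring of tryptophan in the first step of the kynurenine pathway, read 5.86 on VAS, 7.15 on VAD, 5.94 on CTR and 6.01 on BMS. Only its VAD value reached the level of the filter. Mmp3, the matrix metalloproteinase stromelysin 1, read 9.28, 10.37, 9.01 and 9.64. Il17b, a cytokine of the interleukin 17 family, read 6.46 on VAS, 8.11 on VAD, 5.89 on CTR and 9.70 on BMS, so both the deficient and the antagonist array stood above both sufficient arrays. The other interleukin 17 genes past the filter were Il17rc (7.14 on VAS and 7.54 on VAD), Il17ra, Il17rd and Il25, and these last 3 differed by at most 0.07.

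Esm1, a proteoglycan of endothelial cells, read 5.71 on VAS, 7.20 on VAD, 4.93 on CTR and 4.88 on BMS, and Gzma, a protease of cytotoxic lymphocytes, 5.33, 6.70, 5.18 and 5.44. Both lie on chromosome 13 with 1 other array gene between them. Hdc, which makes histamine from histidine, read 7.30, 8.59, 5.91 and 5.94. Lilrb4a, an inhibitory receptor of myeloid cells, read 8.67, 9.87, 6.87 and 7.07, and Acod1, which makes itaconate in macrophages, 6.66, 7.83, 5.75 and 5.88. For Hdc, Lilrb4a and Acod1 the 3 arrays other than VAD were not alike, since CTR minus VAS was -1.39, -1.80 and -0.91. Markers of the cell types in which these genes are known were set beside them. The endothelial list includes Esm1, the macrophage and monocyte list Lilrb4a and Acod1, and the mast cell and basophil list Hdc. The T and natural killer cell list, given further on, includes Gzma. Their counts, medians and sums are therefore not independent of these genes. The summed level of 17 endothelial markers was 12.1 on both VAS and VAD, with 13 of them above 0 (51.4% of all members) and a median of 0.09. The 14 macrophage and monocyte markers summed to 12.0 and 12.1, with 7 above 0 and CTR at 11.0. Of the mast cell and basophil markers 5 passed the filter, with 2 above 0 (51.4% of all members) and a median of -0.12. Their summed level was 12.0 on VAS and 11.9 on VAD. Cpa3, Cma1, Mcpt4, Fcer1a and Ms4a2 were below the filter, while Tpsb2 read 6.22 on VAS and 5.37 on VAD. The part of these markers in the differences was not tested.

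Lower than both sufficient arrays by 2-fold were 11 genes. The clock genes Dbp, Hlf, Per3 and Nr1d1, and Mir505, are described further on. Npm1, the nucleolar protein nucleophosmin, read 9.61 on VAS, 7.51 on VAD, 9.64 on CTR and 9.42 on BMS, so VAD alone was low. Npm1 has many processed copies in the genome, and the array value of such a gene is uncertain. Mrap2, an accessory protein of melanocortin receptors, read 7.50, 6.0, 8.37 and 8.51, and AW549542 8.13, 6.56, 8.04 and 7.45. Gap43, a growth cone protein of nerve fibres, read 7.85, 6.50, 8.20 and 8.20, and Vsnl1, a neuronal calcium sensor also found in muscle, 10.35, 9.09, 10.19 and 10.32. Agt, the precursor of angiotensins, read 8.71 on VAS, 7.56 on VAD, 8.64 on CTR and 8.87 on BMS. In Gap43, Vsnl1 and Agt the 3 arrays other than VAD lay within 1.5-fold of each other. Markers of Schwann cells and neurons had 4 members past the filter, with a median of -0.04 and summed levels of 9.24 on VAS and 9.12 on VAD; Sox10, Mbp, Prph and Snap25 were below the filter.

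**Figure D2:**
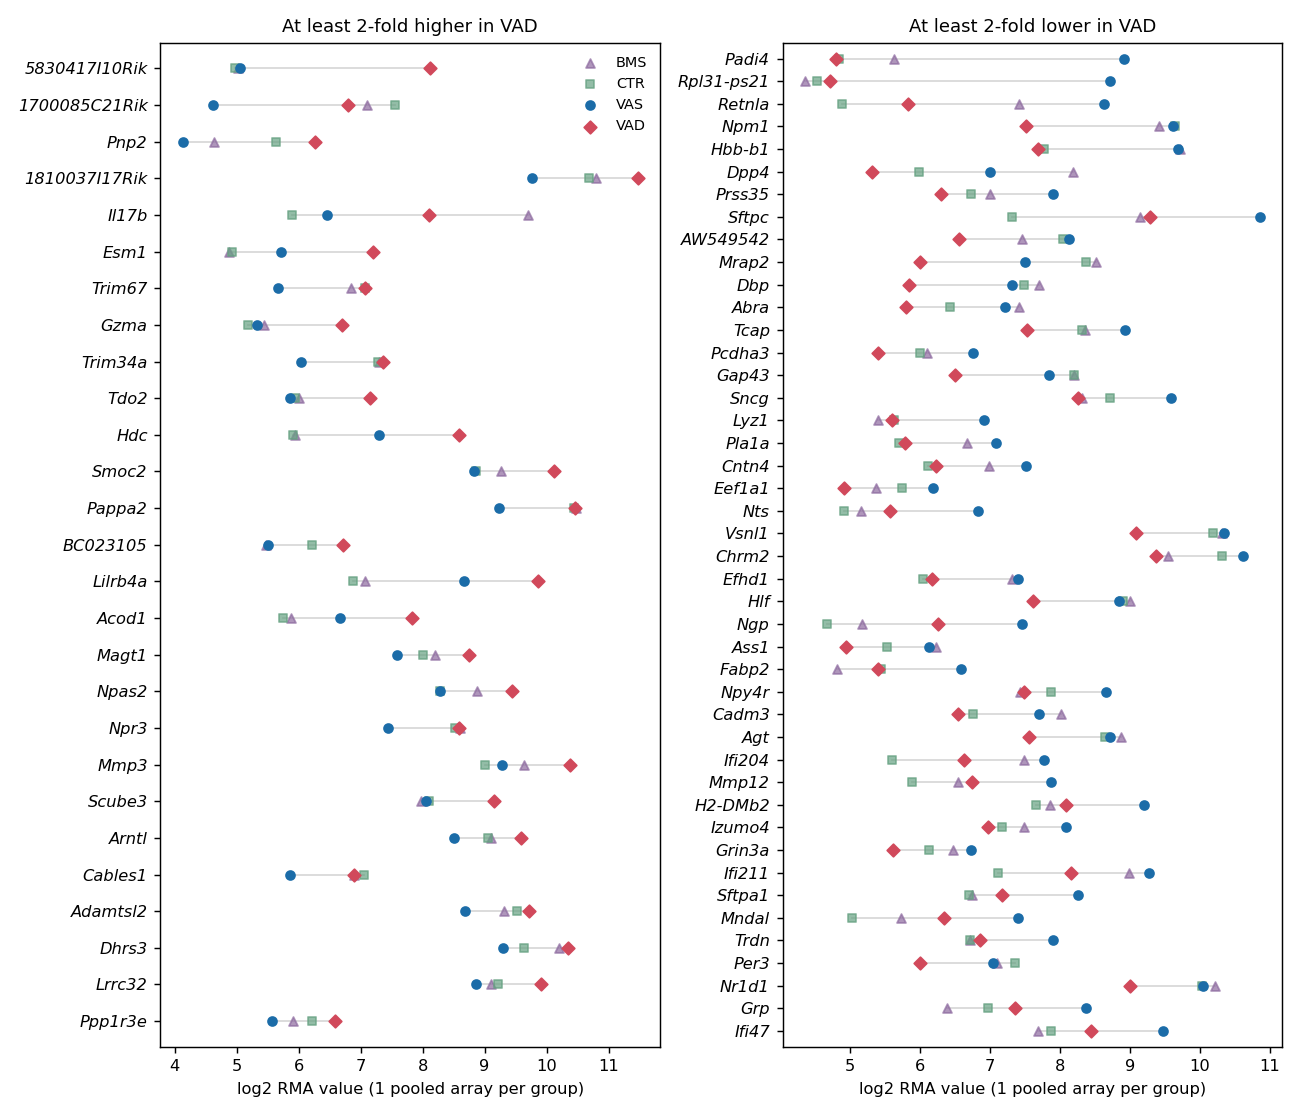
Log2 RMA value (x axis) on the VAS, VAD, CTR and BMS arrays, 1 point per array, for the 27 named genes at least 2-fold higher on VAD (left) and the 44 at least 2-fold lower (right). A grey line joins the lowest and highest array of a gene; in genes such as Smoc2 and Agt the VAD point stands apart from the rest, while in genes such as Pappa2 and Sftpa1 the VAS point does.

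A further set of 2-fold genes was set apart by VAS. Pappa2, a protease that cleaves insulin-like growth factor binding proteins, read 9.23 on VAS, 10.46 on VAD, 10.44 on CTR and 10.47 on BMS. Npr3, the clearance receptor of natriuretic peptides, read 7.44, 8.58, 8.53 and 8.60, and Trim67 5.67, 7.06, 7.07 and 6.84. In each the 3 arrays other than VAS lay within 1.5-fold of each other. Npr1, a guanylyl cyclase that is the receptor for atrial natriuretic peptide, read 6.61 on VAS and 5.87 on VAD, and Npr2 9.78 and 9.67. Trim34a, Cables1, Adamtsl2 and the provisional 1700085C21Rik also had CTR within 1.5-fold of VAD or beyond it on the far side from VAS.

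Among the lower genes with CTR near VAD or beyond it was the furthest of all, Padi4, which converts arginine in proteins to citrulline in neutrophils: it read 8.92 on VAS, 4.80 on VAD, 4.84 on CTR and 5.62 on BMS. Rpl31-ps21, a pseudogene of a ribosomal protein, read 8.72, 4.72, 4.53 and 4.36. Retnla, a secreted product of alternatively activated macrophages, read 8.63, 5.83, 4.89 and 7.42. Of the 10 neutrophil markers past the filter, which include Padi4, Padi4 and Ngp (7.46 on VAS and 6.26 on VAD) were 2-fold lower, 6 were above 0, S100a9 read 9.21 and 9.19, and Csf3r 7.36 and 8.17. Their summed level was 11.5 on both VAS and VAD and 9.48 on CTR. In Padi4 and Rpl31-ps21 VAS stood apart from the 3 other arrays, whereas the BMS value of Retnla lay nearer to VAS than to VAD. Both VAS and BMS were high for Hbb-b1. That gene, a beta-globin of red cells, read 9.69 on VAS, 7.69 on VAD, 7.77 on CTR and 9.72 on BMS.

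The remaining 2-fold genes lay between these kinds or were set apart by single arrays. Pnp2, a purine nucleoside phosphorylase with a near-identical neighbour, read 4.14 on VAS, 6.26 on VAD, 5.63 on CTR and 4.64 on BMS, and 1810037I17Rik 9.77, 11.47, 10.69 and 10.80. The latter lies beside Fabp2 on chromosome 3, which was lower. Lrrc32, which holds latent TGF-beta on the cell surface, read 8.87, 9.90, 9.22 and 9.11, and Magt1, a magnesium transporter and glycosylation subunit, 7.59, 8.75, 8.01 and 8.20. In Lrrc32 and Magt1 VAD was the highest of the 4 and CTR stood between VAS and VAD. BC023105 (5.50 on VAS and 6.72 on VAD) and Ppp1r3e (5.57 and 6.59) were higher from values under the filter.

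Further lower genes were these. Sncg, gamma-synuclein, read 9.59 on VAS, 8.25 on VAD, 8.72 on CTR and 8.32 on BMS, and Cadm3, a neuronal adhesion protein, 7.71, 6.55, 6.76 and 8.01. Npy4r, a receptor of pancreatic polypeptide, read 8.66, 7.49, 7.87 and 7.43, and Nts, neurotensin, 6.83, 5.57, 4.92 and 5.16. For these 4 genes CTR lay nearer to VAD than to VAS. Cntn4, an axonal adhesion protein, read 7.52, 6.23, 6.12 and 6.98, Grin3a, a glutamate receptor subunit, 6.73, 5.62, 6.13 and 6.47, and Pcdha3, a protocadherin, 6.76, 5.40, 6.0 and 6.10. The others were Pla1a, a phospholipase (7.08 on VAS and 5.79 on VAD), Efhd1 (7.40 and 6.17), Izumo4 (8.08 and 6.97), Ass1, which makes argininosuccinate (6.14 and 4.94), Ngp, a neutrophil granule protein, and Eef1a1, a translation factor with many processed copies and so an uncertain value (6.18 and 4.92).

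Alveolar type 2 epithelial genes stood lower on VAD, and lower still on CTR. Of 9 markers past the filter 1 was above 0 (51.4% of all members were) and 7 were at least 1.5-fold lower (2.11% of all members), with a median of -0.91. Sftpc, a surfactant protein, read 10.86 on VAS, 9.28 on VAD, 7.32 on CTR and 9.15 on BMS. Sftpa1, another surfactant protein, read 8.26, 7.18, 6.71 and 6.74, and Lyz1, a lysozyme, 6.92, 5.60, 5.64 and 5.41. Slc34a2, Scd1, Chil1 and Sftpb differed by -0.91, -0.91, -0.67 and -0.59. The summed level was 11.7 on VAS, 10.6 on VAD, 10.002 on CTR and 10.6 on BMS. VAS was the high array, and the sufficient arrays VAS and CTR lay on opposite sides of VAD. Alveolar type 1 markers (6 past the filter, median 0.03) and airway epithelial markers (7, median 0.15) had medians above 0.

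Many circadian clock genes differed, with most repressors and the PAR-domain factors lower on VAD than on VAS, and Arntl and Npas2 at least 2-fold higher. In the clock, ARNTL (also called BMAL1) with CLOCK or NPAS2 activates genes through E-boxes, PER and CRY proteins repress that activity, NR1D1 and NR1D2 repress Arntl, and the PAR-domain factors DBP, TEF and HLF act through D-boxes, where NFIL3 opposes them. All 11 repressors and PAR-domain factors past the filter were lower on VAD than on VAS, 6 of them by at least 1.5-fold, with a median of -0.72. Bhlhe41 was below the filter. VAD was the lowest of the 4 arrays in 10 of the 11, against 19.7% of all members. All 6 genes past the filter on the list of activators and their partners were above 0 (51.4% of all members), with a median of 0.22. That list also holds Cry1, which represses, and Nfil3, whose protein opposes the PAR-domain factors. VAD was the highest of the 4 arrays in 4 of the 6 (19.4% of all members): Arntl, Npas2, Nfil3 and Cry1. Several of these genes were already among the 2-fold genes, and all were chosen as a list with earlier results of these data known.

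Dbp read 7.31 on VAS, 5.84 on VAD, 7.48 on CTR and 7.71 on BMS. Hlf read 8.84, 7.62, 8.89 and 9.0, and Tef, the third PAR-domain factor, 7.50, 7.10, 7.70 and 7.86. The 3 arrays other than VAD lay within 1.5-fold of each other in each of these genes. Nr1d1 read 10.05 on VAS, 9.01 on VAD, 10.03 on CTR and 10.21 on BMS, and Nr1d2 10.01, 9.25, 10.02 and 9.93. Per3 read 7.04, 5.99, 7.35 and 7.10, Per2 6.88, 6.15, 7.21 and 6.97, and Per1 9.38, 9.25, 9.67 and 9.67. Among the period genes, then, the distance grew from Per1 (-0.12) over Per2 (-0.73) to Per3 (-1.04). Cry2 read 7.93, 7.64, 8.21 and 8.11, and Ciart, a repressor of CLOCK and ARNTL, 6.66, 6.37, 6.67 and 6.63. Bhlhe40, at 10.26, 10.15, 10.15 and 10.22, was the member in which VAD was not the lowest.

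On the other side, Arntl read 8.51 on VAS, 9.59 on VAD, 9.06 on CTR and 9.10 on BMS. Npas2 read 8.28, 9.44, 8.28 and 8.87. For Npas2, VAS and CTR were equal to 2 decimals, whereas for Arntl CTR lay midway between VAS and VAD. Clock read 10.03, 10.33, 10.34 and 10.23, Rora, an activator of Arntl, 10.02, 10.17, 10.23 and 10.15, Nfil3 9.81, 9.95, 9.58 and 9.38, and Cry1, whose transcript peaks later than those of the other repressors, 7.03, 7.06, 6.73 and 6.81. The CTR array differed from VAS by a median of 0.17 over the 11 repressors and PAR-domain factors, and VAD from CTR by -0.76. Genes that follow the clock without being part of it did not share the pattern against VAS. The 10 past the filter had a median of 0.01 for VAD minus VAS and of -0.12 for VAD minus CTR. Ppargc1a was the 1 gene at least 1.5-fold apart between VAD and VAS (7.75 on VAS, 7.0 on VAD, 6.85 on CTR and 6.61 on BMS). Transcript levels of clock genes depend on the hour of the day in most tissues. No label or file used here gives the hour of collection, and its part in these differences was not tested.

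**Figure D3:**
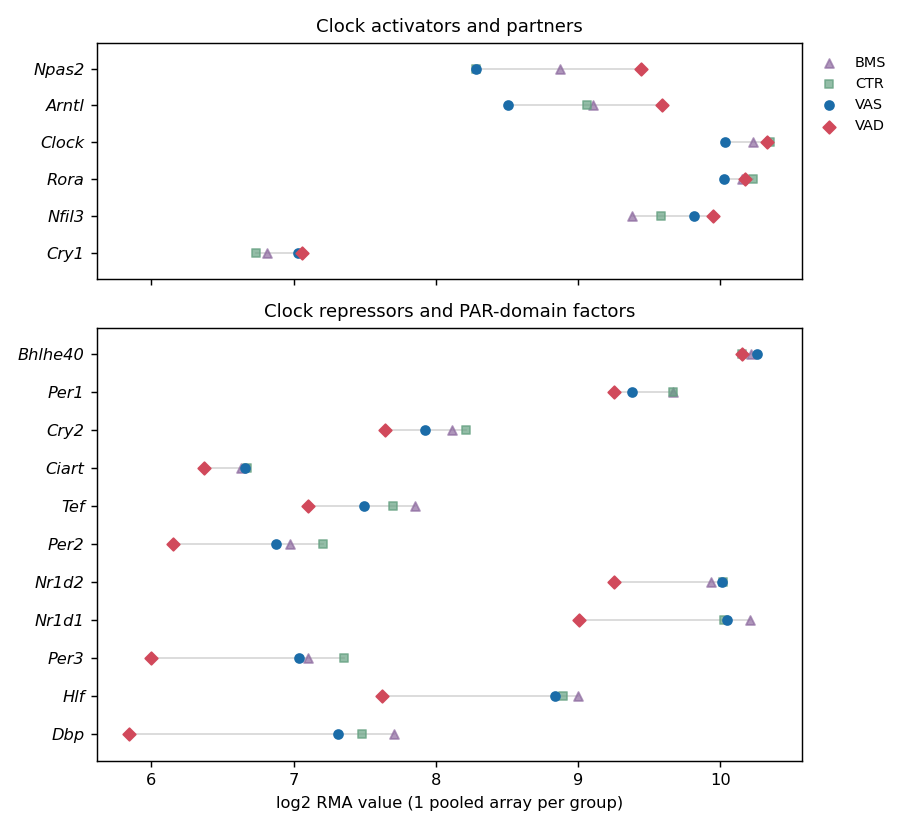
Log2 RMA value (x axis) of the 6 clock activators and partners (top) and the 11 repressors and PAR-domain factors (bottom) on the 4 arrays, 1 point per array. VAD is the lowest point in 10 of the 11 genes of the bottom panel and the highest in 4 of the 6 of the top panel, while VAS, CTR and BMS stay close together in most rows.

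Motifs were found in the promoter windows of 9 clock genes. Of these windows 4, chosen after the matches were seen, are shown as examples of each motif because many clock genes differed on the VAD array. Of those not shown, Clock, Nfil3, Nr1d2 and Per1 held AGGTCA, and Cry1 and Per1 the E-box. Windows run from 250 bases before to 50 after the gene start, from RefSeq on GRCm38.p6, are written 5′ to 3′ on the gene's strand, and carry the motif in capitals: the D-box TTATGTAA, the E-box CACGTG or the nuclear receptor motif AGGTCA, each searched on both strands. The Per3 window is chr4:151044616-151044915 on the minus strand, Ciart chr3:95882179-95882478 on the minus strand, Tef chr15:81802423-81802722 on the plus strand and Arntl chr7:113207261-113207560 on the plus strand.
Per3: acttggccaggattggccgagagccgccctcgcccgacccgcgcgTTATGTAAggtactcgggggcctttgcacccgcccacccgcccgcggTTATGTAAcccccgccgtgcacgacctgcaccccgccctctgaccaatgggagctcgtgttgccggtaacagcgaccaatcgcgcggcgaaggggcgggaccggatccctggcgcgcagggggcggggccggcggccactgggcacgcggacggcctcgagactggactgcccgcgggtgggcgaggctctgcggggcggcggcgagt
Ciart: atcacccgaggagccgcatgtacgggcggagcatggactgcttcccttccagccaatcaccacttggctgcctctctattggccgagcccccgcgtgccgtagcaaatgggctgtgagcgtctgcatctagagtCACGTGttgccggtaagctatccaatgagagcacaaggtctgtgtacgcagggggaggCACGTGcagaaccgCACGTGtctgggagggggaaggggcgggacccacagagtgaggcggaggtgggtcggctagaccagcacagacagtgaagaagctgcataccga
Tef: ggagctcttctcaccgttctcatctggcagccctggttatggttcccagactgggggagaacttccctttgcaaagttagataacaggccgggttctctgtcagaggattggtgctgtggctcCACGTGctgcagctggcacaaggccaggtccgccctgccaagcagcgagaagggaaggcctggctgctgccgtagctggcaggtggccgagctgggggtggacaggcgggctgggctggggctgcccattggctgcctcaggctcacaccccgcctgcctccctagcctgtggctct
Arntl: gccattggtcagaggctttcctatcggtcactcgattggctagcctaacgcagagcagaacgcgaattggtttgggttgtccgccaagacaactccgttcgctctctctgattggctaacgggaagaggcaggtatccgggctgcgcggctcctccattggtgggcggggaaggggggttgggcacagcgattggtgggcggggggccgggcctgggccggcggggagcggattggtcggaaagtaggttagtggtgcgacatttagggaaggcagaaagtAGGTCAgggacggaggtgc

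Per3 holds 2 D-boxes, at -205 and -158 from the gene start, Ciart 3 E-boxes at -116, -58 and -44, Tef 1 E-box at -127 and Arntl 1 AGGTCA at 31. Tef and Arntl each had another window, not shown. That of Tef (chr15:81811164-81811463) also held an E-box, and that of Arntl (chr7:113207215-113207514) held none of these motifs. The E-box was in 8.09% of the 27025 genes with a promoter in the table, the D-box in 1.11% and AGGTCA in 18.1%, and among the 9621 of them past the filter in 11.4%, 0.613% and 14.5%. Of the 9 repressors and PAR-domain factors with a promoter in the table, 3 held an E-box, 1 a D-box and 2 AGGTCA, and of the 6 activators and partners 1 held an E-box and 3 AGGTCA. Among the 30 lower genes of 2-fold with a promoter, 2 held a D-box (Per3 and Cntn4) and 2 an E-box, and among the 19 higher ones 1 held an E-box and 4 AGGTCA. The windows of Dbp, Hlf, Nr1d1 and Npas2 held none of these letters, which says nothing of sites elsewhere. AGGTCA in direct repeat with a gap of 2 or 5 bases, a form that RAR and RXR partners can bind, was in 2 and 3 of all 27025 genes. Among the 9621 past the filter, those of retinoid genes included, it was in 0. Only these exact letters were searched, so the 0 says nothing of repeats with other letters. The exact repeats were too rare in the whole table for the 0 to set retinoid genes apart. A match is a description of these letters and not evidence of binding.

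Genes of vitamin A handling differed little between the diets, apart from a few enzymes. Dhrs3, which reduces retinaldehyde back to retinol, was the 1 retinoid gene at least 2-fold apart: it read 9.30 on VAS, 10.34 on VAD, 9.63 on CTR and 10.20 on BMS, so VAD was highest and BMS close to it. Aldh1a1, which oxidises retinaldehyde to retinoic acid, read 8.78, 9.52, 8.08 and 8.91, again with VAD highest. The related Aldh1a3 read 6.29, 5.75, 5.55 and 5.83, and Aldh1a2 5.47, 5.68, 5.53 and 6.41, with only its BMS value at the level of the filter. Cyp26b1, which breaks down retinoic acid, read 6.09 on VAS, 6.22 on VAD, 6.07 on CTR and 6.18 on BMS, and Cyp26a1 and Cyp26c1 were below the filter. Aox1 and Aox3, aldehyde oxidases, read 8.03 and 6.66 on VAS against 7.90 and 6.22 on VAD. The 6 members of the synthesis and breakdown list had a median of 0.0047.

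Enzymes between retinyl esters, retinol and retinaldehyde leaned lower. Of 13 past the filter 3 were above 0 (51.4% of all members), with a median of -0.18, and Dhrs3 was the member beyond 1.5-fold. Rdh10, the main retinol dehydrogenase of embryos, read 9.82 on VAS, 9.28 on VAD, 9.54 on CTR and 9.32 on BMS. Lrat, which makes retinyl esters, read 7.35, 6.99, 7.45 and 7.42, and was the lowest on VAD. Adh1, an alcohol dehydrogenase, read 11.06, 10.73, 9.70 and 10.87, and Adh5 7.83, 7.41, 7.19 and 7.45. In Adh1 and Adh5 CTR lay further from VAS than VAD did. Dhrs7, Rdh5, Rdh14, Dhrs4, Rdh13 and Adh7 differed by -0.27 to -0.06, with Dhrs7 at 8.79 on VAS and 8.52 on VAD, and Rdh11 (7.23 and 7.30) and Dgat1, which can also esterify retinol (8.69 and 9.07), were higher.

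Of the carriers, 4 of 12 passed the filter. Rbp4, the plasma carrier of retinol, read 8.61 on VAS, 8.83 on VAD, 7.70 on CTR and 7.88 on BMS. Lrp1, a large endocytic receptor, read 10.76, 11.12, 11.17 and 11.17, and Crabp2, which hands retinoic acid to its receptors, 6.97, 7.22, 7.12 and 7.08. Rbp7, a cellular retinol binder of fat and endothelium, was the lower one, at 6.28, 5.82, 5.30 and 5.56. Of the 6 receptors 5 passed, with a median of 0.11 and no gene beyond 1.5-fold. Rara read 7.19 on VAS, 7.50 on VAD, 7.52 on CTR and 7.55 on BMS, Rarg 7.64, 7.75, 8.11 and 8.26, and Rarb, itself a target of retinoic acid in many cells, 6.43, 6.39, 6.42 and 6.58. Rxra read 6.02, 5.87, 6.09 and 6.02 and Rxrb 7.22, 7.35, 7.42 and 7.31, while Rxrg was below the filter. For Rara it was VAS that stood apart, and for Rarb no array did.

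**Figure D4:**
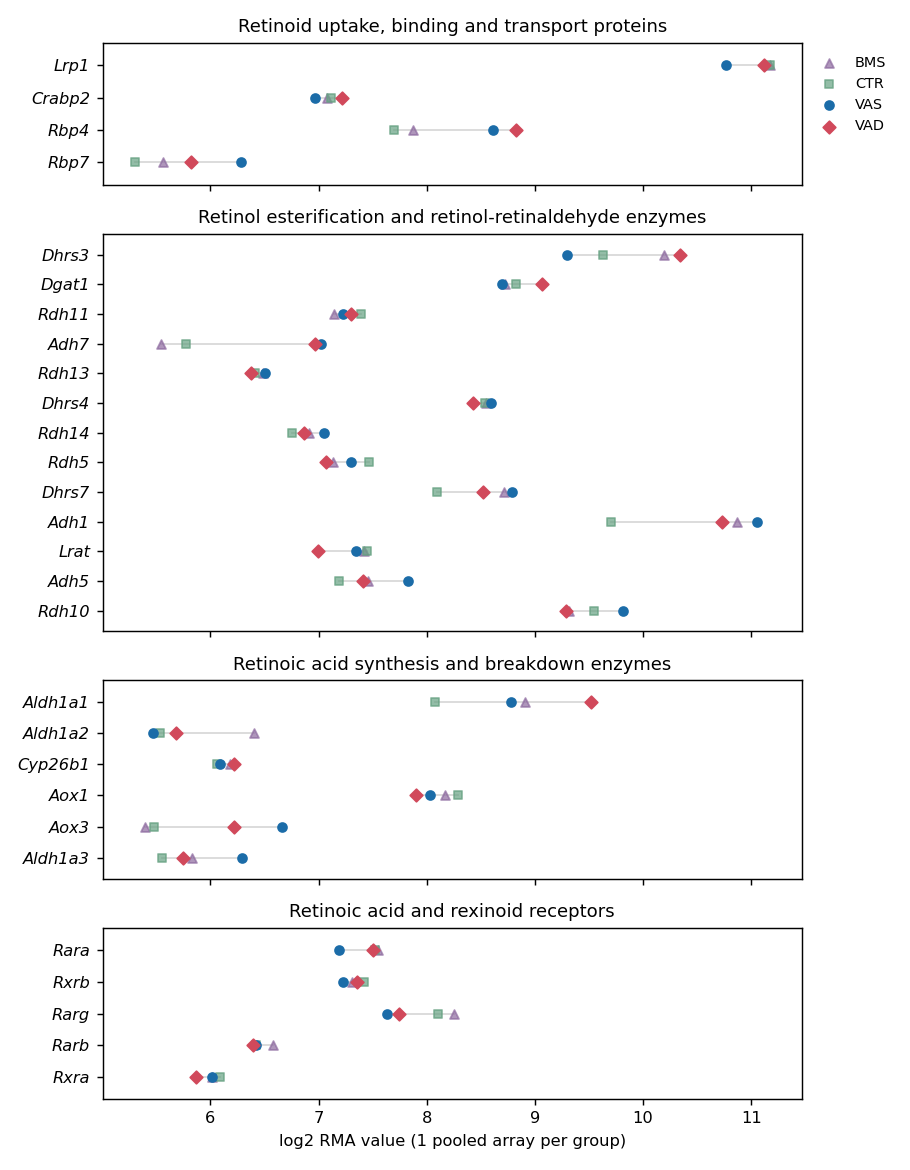
Log2 RMA value (x axis) on the 4 arrays, 1 point per array, for the retinoid genes past the filter, grouped into carriers, enzymes of retinol and its esters, enzymes of retinoic acid, and receptors. Dhrs3 and Aldh1a1 show VAD furthest above VAS, and the receptors show the 4 points close together.

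Contractile genes were slightly higher on VAD as a group. Of 29 actin, myosin and thin filament genes past the filter 24 were above 0 (51.4% of all members), with a median of 0.16. VAD was the highest of the 4 arrays in 20 (19.4% of all members). The CTR array differed from VAS by a median of 0.02 in this list. Single differences were small: Ldb3, a Z-disc protein, was the only one beyond 1.5-fold (1.45% of all members were that much higher), at 7.44 on VAS, 8.10 on VAD, 7.46 on CTR and 7.55 on BMS. Des, the muscle intermediate filament, read 11.45, 11.85, 11.57 and 11.35, and Actn1, which crosslinks actin, 10.79, 11.32, 10.68 and 10.57. Myh11, the smooth muscle myosin heavy chain, read 11.25, 11.56, 11.34 and 11.18. Among the lower ones were Pdlim3 (10.62 on VAS and 10.43 on VAD) and Myl9 (12.27 and 12.10). The transcription factors behind these genes were near 0, with Myocd at 10.63 on VAS and 10.76 on VAD and Srf at 8.53 and 8.66. Abra, an activator of SRF signalling in striated muscle, was lower at 7.21 on VAS, 5.80 on VAD, 6.42 on CTR and 7.42 on BMS, and Heyl, a Notch target, read 8.83, 9.37, 9.68 and 9.46.

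Receptors that govern airway tone had a median of 0.01 over 24 members, but 7 were at least 1.5-fold lower (2.11% of all members) and 1 higher (1.45%). Chrm2, the muscarinic receptor M2 that couples to inhibition of cyclic AMP, read 10.62 on VAS, 9.37 on VAD, 10.32 on CTR and 9.54 on BMS. VAD and BMS were the low arrays for it, and both sufficient arrays were high. Tacr2, the neurokinin A receptor, read 7.57, 6.86, 7.71 and 6.96, with the same split. Agtr1a, an angiotensin receptor, read 6.91, 6.31, 7.01 and 6.93, so that with Agt both the ligand's precursor and this receptor were lowest on VAD. Cysltr1, a leukotriene receptor, read 7.69, 7.01, 7.32 and 7.21, and Ednrb, an endothelin receptor, 10.38, 9.78, 10.16 and 9.87. The prostanoid receptors Ptger3 (6.43, 5.66, 5.84 and 7.16) and Ptgfr (6.86, 6.19, 5.48 and 6.30) were lower too, with CTR below VAS in both. Htr1b, a serotonin receptor, was the higher one, at 6.06, 6.85, 6.27 and 6.02.

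Of 22 calcium genes 3 were at least 1.5-fold higher (1.45% of all members) and 1 lower (2.11%), with a median of -0.04. Casq2, a calcium buffer of the sarcoplasmic reticulum, read 6.61 on VAS, 7.39 on VAD, 6.19 on CTR and 6.80 on BMS, and its relative Casq1 6.43, 7.02, 6.30 and 5.94. Jph2, which holds the reticulum to the surface membrane, read 7.29, 7.91, 7.62 and 7.26. Trdn, which anchors calsequestrin, was lower at 7.91, 6.86, 6.72 and 6.72. Markers of cardiac muscle, in which these genes are also active, had 5 members past the filter, none above 0, a median of -0.14 and summed levels of 12.9 on VAS and 12.8 on VAD; Tnnt2 read 10.36 and 9.59, and Myh6 and Nppa were below the filter. Tcap, a titin-binding protein of striated muscle, read 8.93, 7.53, 8.32 and 8.36. Their part in the calcium genes was not tested. Among 16 potassium and chloride channel genes the median was 0.00, and Kcnip1 (5.94 on VAS and 6.55 on VAD) was alone beyond 1.5-fold.

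Matrix and adhesion genes had medians near 0, with a few members apart. Of 50 extracellular matrix genes 3 were at least 1.5-fold higher (1.45% of all members) and none lower (2.11%): Smoc2, Col4a2, a basement membrane collagen (7.24 on VAS, 8.05 on VAD, 7.74 on CTR and 7.82 on BMS), and Eln, elastin (9.91, 10.69, 11.13 and 10.58). Of 28 integrin and focal adhesion genes 2 were higher by that much: Itga5, the fibronectin receptor chain (9.56, 10.30, 9.55 and 9.51), and Itgb3 (6.69, 7.58, 7.11 and 7.59). For Itga5 VAD alone was high, whereas Eln was high on all 3 arrays other than VAS. Of 30 matrix proteases and inhibitors 2 were at least 1.5-fold higher (1.45% of all members) and 5 lower (2.11%), with a median of 0.10. Dpp4, a dipeptidase of fibroblasts and lymphocytes, read 7.0 on VAS, 5.31 on VAD, 5.98 on CTR and 8.18 on BMS, and Prss35 7.90, 6.29, 6.73 and 6.99. Fap, a close relative of Dpp4 on fibroblasts, read 6.60, 5.86, 6.01 and 8.47, Htra3 9.50, 8.85, 8.52 and 9.54 and Adamts5, an aggrecanase, 8.76, 8.16, 8.14 and 8.47. The 21 fibroblast markers, which include Dpp4, had a median of -0.02, with 10 above 0. Mmp12, the macrophage elastase, lies near Mmp3 on chromosome 9, with 1 other array gene between them, and was lower, at 7.87 on VAS, 6.74 on VAD, 5.88 on CTR and 6.54 on BMS.

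Of 32 Wnt and hedgehog genes 3 were at least 1.5-fold lower (2.11% of all members) and 1 higher (1.45%), with a median of -0.04. The lower ones, each a secreted Wnt inhibitor, were named for their differences. Frzb read 6.72 on VAS, 5.78 on VAD, 5.01 on CTR and 7.92 on BMS, Dkk2 6.86, 6.06, 6.61 and 8.98, and Wif1 8.29, 7.56, 10.60 and 8.71. The sufficient arrays VAS and CTR were further apart than VAD and VAS for Wif1 and Frzb. Lgr5, which enhances Wnt signalling, was the higher one, at 8.74, 9.48, 9.45 and 9.60. In the TGF-beta and BMP list (33 members, median 0.08) Bmp6 read 7.30, 6.54, 6.78 and 7.80 and the receptor Tgfbr2 9.04, 9.68, 9.13 and 9.50. Hox and lung mesenchyme factors, many of which retinoic acid induces in embryos, leaned lower by small amounts. Of 25 past the filter 5 were above 0 (51.4% of all members), the median was -0.17, none was beyond 1.5-fold and VAD was the lowest of the 4 arrays in 10 (19.7% of all members). Those nearest the median were Hoxa3 (7.31 on VAS, 7.12 on VAD, 7.33 on CTR and 7.07 on BMS), Wt1 (6.34, 6.16, 6.0 and 6.11), Hoxa5 (8.06, 7.89, 7.81 and 7.69) and Hoxb6 (7.74, 7.59, 7.74 and 7.61).

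Genes that glucocorticoids and fasting raise in many tissues included several that were higher on VAD. Of 21 glucocorticoid response genes 16 were above 0 (51.4% of all members), 4 were at least 1.5-fold higher (1.45%) and none lower, with a median of 0.13, and VAD was the highest of the 4 arrays in 12 (19.4%). Fkbp5, a chaperone of the glucocorticoid receptor, read 6.15 on VAS, 7.04 on VAD, 6.46 on CTR and 6.31 on BMS. Zbtb16, a transcription factor, read 8.12, 8.91, 8.68 and 8.38. Pdk4, which slows glucose oxidation, read 8.01, 8.90, 8.33 and 8.18, and Angptl4, which inhibits lipoprotein lipase, 8.89, 9.70, 9.39 and 9.0. All 4 were highest on VAD, with CTR in between. Other members of the list did not share this: Tsc22d3, Klf9 and Per1 differed by 0.15, -0.01 and -0.12. Pdk4 and Angptl4 also stand in the list of fasting and PPAR genes, where 13 of 18 were above 0 with a median of 0.18, and where Cpt1a, which brings fatty acids into mitochondria, read 9.88, 10.49, 10.44 and 10.31.

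The chaperones of the endoplasmic reticulum were higher on all 3 arrays other than VAS. Of 24 past the filter 22 were above 0 on VAD (51.4% of all members), 4 by at least 1.5-fold (1.45%), with a median of 0.33 for VAD minus VAS and 0.25 for CTR minus VAS. Sdf2l1 read 7.53 on VAS, 8.30 on VAD, 8.32 on CTR and 8.01 on BMS, Hyou1 7.51, 8.17, 8.06 and 8.06, and Pdia6, a disulfide isomerase, 9.15, 9.78, 9.58 and 9.79. Asns, asparagine synthetase, differed from these in that CTR was not higher than VAS, at 7.01, 7.67, 6.85 and 7.15. Subunits of the mitochondrial respiratory chain leaned lower, with 7 of 40 above 0 and a median of -0.13, and ribosomal proteins with 9 of 26 and -0.11; CTR was further below VAS in both (medians -0.30 and -0.31). Ribosomal protein genes have many processed copies, so their values are uncertain. Among 17 heat shock genes Hspa1b read 10.83 on VAS and 10.08 on VAD and Hsf2 5.65 and 6.38. Immediate early genes, which respond to cell handling, had a median of 0.07 over 23 members, and none was beyond 1.5-fold. Of the 23, 17 were above 0 (51.4% of all members), and VAD was the highest of the 4 arrays in 13 (19.4% of all members).

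Interferon response genes were lower on VAD. Of 30 past the filter 4 were above 0 (51.4% of all members) and 6 at least 1.5-fold lower (2.11%), with a median of -0.28, and CTR minus VAS had a median of -0.22, so VAS was again the high array. Among those 6, of which not all are given, Cxcl10, an interferon-induced chemokine, read 8.61 on VAS, 7.77 on VAD, 7.99 on CTR and 8.05 on BMS. Mx2, an antiviral GTPase, read 6.24, 5.60, 6.08 and 5.69, and Gbp3, a guanylate-binding protein, 8.32, 7.65, 7.81 and 7.69. Ifi47, an interferon-gamma-induced GTPase outside the list, was 2-fold lower, at 9.47, 8.45, 7.87 and 7.69. Genes of the Ifi200 family, DNA-sensing proteins encoded together on chromosome 1, were chosen after their values were seen. All 6 of its 11 array genes that passed the filter were lower on VAD, and all 6 lower still on CTR: Ifi204 read 7.78, 6.63, 5.60 and 7.49, Ifi211 9.27, 8.16, 7.12 and 8.98, and Mndal 7.40, 6.34, 5.03 and 5.73. Ifi203, Ifi207 and Ifi205 differed by -0.95, -0.62 and -0.23. Genes of this family are alike in sequence, so how their signals were split is uncertain.

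Leukocyte markers went with this only in part. The 7 B cell and class II markers past the filter were all lower, with a median of -0.57 and summed levels of 12.0 on VAS, 11.5 on VAD, 10.6 on CTR and 10.9 on BMS, and H2-DMb2, which helps load class II molecules, read 9.20 on VAS, 8.09 on VAD, 7.65 on CTR and 7.86 on BMS. The B cell genes Ms4a1, Cd79a, Cd22 and Pax5 were below the filter. T and natural killer markers (8 past the filter, Gzma among them) were mixed, with 3 above 0 (51.4% of all members) and a median of -0.12. Trbc1 read 8.41 on VAS and 7.55 on VAD, Trbc2 9.66 and 8.77, Cd3e 8.99 and 9.69. The summed level of these 8 markers was 11.3 on VAS, 11.2 on VAD and 10.8 on CTR. Among 18 chemokines Ccl3 read 6.65 on VAS and 5.96 on VAD and Ccl6 7.18 and 7.85. The part of these markers in the interferon and Ifi200 genes was not tested.

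**Figure D5:**
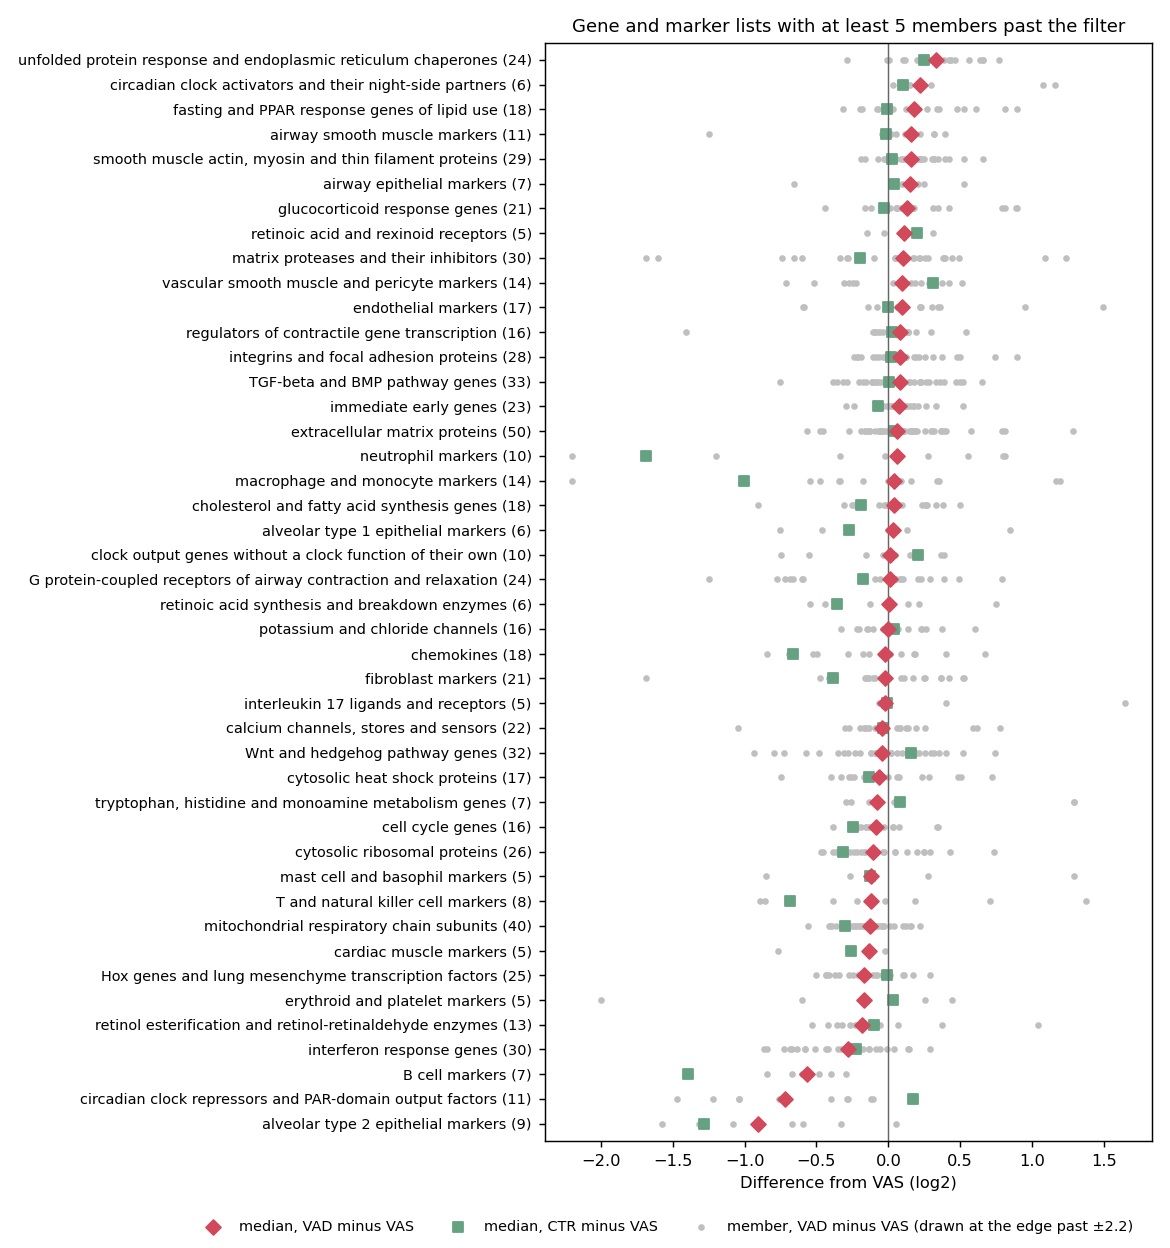
Median difference from VAS (x axis, log2) of each gene or marker list with at least 5 members past the filter, for VAD (red diamonds) and CTR (green squares), with members as grey points and the number of members in brackets. The repressors and PAR-domain factors of the clock lie at -0.72 for VAD and 0.17 for CTR, whereas alveolar type 2 markers lie at -0.91 for VAD and -1.28 for CTR.

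MicroRNA genes were outside the naming rule and were chosen after their values were seen, since 3 of them were among the 2-fold genes. The mature products of each, from RefSeq on GRCm38.p6, are shown with the seed (bases 2 to 8) in capitals to identify them; which product is made was not measured here. The 6 seeds differ from each other.
mmu-miR-376b-3p: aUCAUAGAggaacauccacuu
mmu-miR-376b-5p: gUGGAUAUuccuucuaugguua
mmu-miR-505-3p: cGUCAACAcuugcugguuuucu
mmu-miR-505-5p: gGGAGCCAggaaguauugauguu
mmu-miR-99a-3p: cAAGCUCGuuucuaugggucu
mmu-miR-99a-5p: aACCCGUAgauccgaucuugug

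Mir376b read 4.75 on VAS, 6.39 on VAD, 5.15 on CTR and 4.27 on BMS, and only its VAD value reached the level of the filter. Mir505 read 5.88, 4.66, 6.33 and 4.70, and Mir99a 8.50, 7.47, 8.19 and 7.51. For Mir505 and Mir99a both sufficient arrays stood above both the VAD and BMS arrays. Of the Mir505 values only that on CTR reached the level of the filter, so its VAD and VAS values were both under it.

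Most of these genes were within 1.5-fold between the antagonist array and its own control. Of the 29 higher genes 3 were at least 1.5-fold higher on BMS than on CTR (3.11% of all members) and 3 at least 1.5-fold lower (1.89%), and 23 were within 1.5-fold. At 2-fold 1 of the 29 was higher on BMS, Il17b (1.07% of all members), and 1 of the 52 lower, Mir505 (0.282%). Those higher in both were Il17b, Mmp3 and Npas2. Of the 52 lower genes 7 were at least 1.5-fold lower on BMS than on CTR (1.89% of all members). Another 15 were at least 1.5-fold higher (3.11%), and 30 were within 1.5-fold. Lower in both were Chrm2, Mir505, Mir99a, AW549542, Fabp2, Grp and a provisional gene, of which Fabp2, a fatty acid-binding protein of gut, read 6.58, 5.40, 5.45 and 4.82, and Grp, gastrin-releasing peptide of neuroendocrine cells and nerves, 8.38, 7.35, 6.97 and 6.38. VAD minus VAS and BMS minus CTR share no array, and each sets 1 array against 1.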

How the data were processed

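The deposited values are log2 expression values from the authors' RMA step (background correction, normalization across arrays and 1 summary per probe set); the submitters' processing notes name affy 1.36.1 and R 2.15.1. No source used here says which arrays were normalized together. Scanner intensities were not used, so whether a probe set was above background is unknown, and precision is limited by having 1 array a group. Of 25206 probe sets, each 1 Entrez gene, 23185 had 1 symbol in the platform annotation and 2021 had none, and all 23185 matched RefSeq GRCm38.p6 by Entrez number, with 0 symbols changed. Named genes were kept where the highest of 4 values reached the median of all values, 6.05. Differences were subtractions of log2 values between groups of 1 array, computed with Python 3.11.15, numpy 2.4.6 and pandas 2.3.3 and drawn with matplotlib 3.10.9. The steps were tested on simulated data.

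The members and the 50 gene lists were chosen with earlier results of these data known. Named in the text were all 2-fold genes without provisional or copy-rich names (those among the 5 largest in a direction also). All retinoid and clock list members past the filter were named too. From the other lists, members at least 1.5-fold apart could be named, at most 6 in each direction beside 2-fold genes, but not all are given. Up to 4 members nearest the median could be added for the lists furthest from 0. Any other gene given with values was chosen after its values were seen. Alternatives were other filters, other fold thresholds, quantile normalization and centring of the deposited values, unnamed probe sets included, and CTR in place of VAS.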

Additional observations from a re-analysis of the deposited data

How the results depend on the processing

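No paired analysis was possible because each group holds 1 array, and for the same reason no replicate could be left out and no difference has an error. Quantile normalization of the deposited values, centring of each array on its median and the addition of unnamed probe sets kept both counts within 1.5 times, and Dhrs3 then stood at 0.998 after quantile normalization, just under 2-fold. With no filter 51 genes were at least 2-fold higher and 92 lower, and with the filter at the 75th percentile (7.67) 17 and 34. At 1.5-fold the counts were 180 higher and 262 lower, and at 3-fold 6 and 8. Above both sufficient arrays stood 76 genes at 1.5-fold and 2 at 3-fold, and below both 48 and 1. With CTR in place of VAS 174 genes were at least 2-fold higher and 45 lower. That setting turned the sign of 18 of 50 list medians, of which 9 had been at least 0.1 from 0 against VAS and are given here: retinol esterification and redox enzymes 0.11, receptors of retinoic acid -0.067, ribosomal proteins 0.27, respiratory chain 0.15, alveolar type 2 markers 0.47, T and natural killer markers 0.28, B cell markers 0.99, mast cell markers 0.011 and cardiac markers 0.12. It also turned 20 of the named 2-fold genes: 1700085C21Rik to -0.75, Trim67 to -0.0060, Cables1 to -0.15, Rpl31-ps21 to 0.19, Retnla to 0.94, Sftpc to 1.96, Pla1a to 0.082, Cntn4 to 0.12, Nts to 0.65, Efhd1 to 0.12, Ngp to 1.59, Ifi204 to 1.03, Mmp12 to 0.85, H2-DMb2 to 0.43, Ifi211 to 1.04, Sftpa1 to 0.47, Mndal to 1.31, Trdn to 0.14, Grp to 0.38 and Ifi47 to 0.57. The cause was not tested. With CTR in place of VAS the medians of clock activators and their partners (0.35) and of repressors and PAR-domain factors (-0.76) kept their direction. That of genes that follow the clock went from 0.01 to -0.12.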
